A study of Mus musculus with 6 samples.

Results

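The 10 genes described here govern how many mitochondria a cell makes and how it joins and divides them, and all of them were found by symbol among the 26699 genes in the deposited tables. They are Ppargc1b, Esrra, Nrf1, Gabpa, Tfam, Tfb2m, Polrmt, Mfn2, Opa1 and Dnm1l. They were chosen by their known roles, by symbol, with earlier results of these data already known. The RNA was that of mouse marrow macrophages in primary culture, given RANKL, the cytokine that starts osteoclast formation. Marrow was taken from mice aged 8 weeks and expanded in 10 ng/mL M-CSF, which macrophages need to grow. Once passaged, they were kept in 30 ng/mL M-CSF with 50 ng/mL RANKL, and cells of both genotypes had been in RANKL for 48 hours. The 3 control libraries came from Slc11a2flox/flox cells and the 3 knockout (cKO) libraries from LysmCre-Slc11a2flox/flox cells, in which lysozyme M drives Cre in the myeloid lineage. Both genotypes thus carried floxed alleles of Slc11a2, the gene of the ferrous iron transporter DMT1, and only the cKO cells carried Cre, so effects of Cre and of Slc11a2 loss cannot be told apart. The sources used here do not say if every library had a mouse of its own, so the p-values measure the spread between libraries, which may be technical in part.

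A resorbing osteoclast is rich in mitochondria. PGC-1β, the product of Ppargc1b, is a coactivator that raises the transcription of nuclear genes for mitochondrial proteins, and in osteoclasts it is known for linking iron uptake to mitochondrial biogenesis. It has no DNA-binding domain of its own and works through factors such as ERRα (Esrra), NRF1 (Nrf1) and GABPα (Gabpa). Those factors act on nuclear genes, among them the genes of the machinery that transcribes mitochondrial DNA: the packaging factor TFAM, the initiation factor TFB2M and the RNA polymerase POLRMT. The shape of the mitochondrial network is set by large GTPases: MFN2 fuses outer membranes, OPA1 fuses inner membranes and keeps cristae in shape, and DRP1 (Dnm1l) constricts and divides the organelle.

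Promoter sites are shown first, because the factors of the group are known to act on promoters of other members, and the motifs show which members carry their letters near the start site. Promoter windows of 300 bases (250 before and 50 after each annotated start) were taken from RefSeq on GRCm38.p6, the assembly also called mm10. Of the 10 genes, 9 were matched. The unmatched gene was not searched, so a regulator not listed with a motif below need not lack it. The NRF1 motif was searched as GCGCA and GCGC with any 1 base between them, and the GABP motif as CCGGAAG, both on either strand. These were found in 4.6% and 8.86% of all 32851 windows. Counted per gene over any of its windows, as for the members, they were found in 1218 and 2137 of 11332 genes tested between genotypes. The GABP letters stood in the windows of Gabpa, Tfam, Polrmt and Dnm1l, and the NRF1 letters in those of Polrmt and Opa1. In the lines below, each read 5′ to 3′ on the gene's strand, capitals mark the motif or its reverse complement.
Opa1, chr16:29579214-29579333, plus strand, NRF1, the 120 bases before the start: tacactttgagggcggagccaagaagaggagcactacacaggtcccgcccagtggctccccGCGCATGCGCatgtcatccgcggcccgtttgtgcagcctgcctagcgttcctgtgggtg
Polrmt, chr10:79746565-79746594, minus strand, NRF1: gcaggcgGCGCGTGCGCGTGCGCactgcgg
Polrmt, chr10:79746607-79746636, minus strand, GABP: accctaagagcgCTTCCGGcagtcgcagaa
Tfam, chr10:71238074-71238103, minus strand, GABP: tcctgccgcggaCCGGAAGtccgggcttcc
Gabpa, chr16:84835019-84835048, plus strand, GABP: ggagggtaagtgCTTCCGGgtccctcagct
Dnm1l, chr16:16358546-16358575, minus strand, GABP: ggctgtcgcttcCTTCCGGccgctgaggac
The Polrmt line with NRF1 holds 2 overlapping copies, of which the first begins 6 bases before the start, so that this line spans the start site. The GABP letters began 47 bases before the RefSeq start in Tfam, 43 in Polrmt and 93 in Gabpa, and 12 bases after it in Dnm1l, which has a second RefSeq window without these letters. The lines of Gabpa, Tfam and Dnm1l, and the NRF1 line of Polrmt, overlap an exon in GENCODE release M21, whereas the Opa1 line and the GABP line of Polrmt overlap none. The other motifs searched were TCAAGGTCA for ERR, TGACGTCA for CREB and AANATGGCG for YY1, found in 0.423%, 1.79% and 2.38% of all windows. Per gene, they were found in 37, 382 and 620 of the 11332. Of these 3 motifs, only the YY1 letters were present in a member, Gabpa. A match of letters is not evidence that the factor was bound in these cells.

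The libraries held 49720701 to 57797282 counts each. Levels per library are given in CPM (counts scaled to library size by TMM) and, throughout, in the order of replicates 1, 2 and 3. Slc11a2 read 118.5, 109.6 and 118.3 CPM in control libraries against 78.3, 82.8 and 87.4 CPM in cKO libraries (edgeR adjusted p = 0.00219). All 6 libraries thus followed their labels, and most of the gene's reads were still present in cKO cells. Counts over the whole gene cannot tell intact message from message of a deleted allele. All 6 macrophage markers and all 8 osteoclast markers were expressed. The macrophage markers summed to 6429 to 6944 CPM in control and 6216 to 6724 CPM in cKO libraries. Of their log2 fold changes 3 were negative and 3 positive. At an unadjusted p under 0.05, 1 was higher, and 0 of 6 passed by edgeR, while DESeq2 called 1 higher. The summed level of the osteoclast markers was 10632 to 13947 CPM in control and 7480 to 10918 CPM in cKO libraries. All 8 log2 fold changes were negative, with a median of -0.42, 3 had an unadjusted p under 0.05, and 0 of 8 passed the test; a fit with a replicate block, given with the other alternatives, differed here. Of 8 neutrophil markers, 6 were tested and 4 were higher in cKO cells, with summed levels of 20.5 to 25.6 and 47.0 to 60.4 CPM; Ly6g was not analysed here. The 6 stromal markers summed to 3365 to 3937 CPM in control and 3166 to 5092 CPM in cKO libraries. All 6 were positive, with a median of 0.42, 3 had an unadjusted p under 0.05, and 0 of 6 passed by edgeR, while DESeq2 called 1 higher. Erythroid, B cell and T and NK cell markers that were analysed stayed below 15 CPM in the sum of each list in every library. Of them, 2 erythroid, 2 B cell and 0 T and NK cell markers were tested, and 0 were called. The part that such cells play in the results was not tested, and in bulk RNA fewer cells of a type and less RNA per cell cannot be told apart.

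None of the 10 regulators was called different between genotypes. The test was edgeR's quasi-likelihood F test over 16843 genes, with a call at a Benjamini-Hochberg adjusted p below 0.05. It called 407 genes or 2.42% of all, 229 (1.36%) higher and 178 (1.06%) lower in cKO cells, and 0 of 10 regulators. With the trend over gene length removed the split of all calls was 232 higher and 119 lower. At an unadjusted p under 0.05 there were 2 of 10, Tfam and Mfn2, both lower, where 8.79% of all genes were lower at that level. DESeq2, which called 5.19% of all genes, also called 0 of the 10, as did limma-voom and the other alternatives. The log2 fold changes ran from -0.25 for Tfam to 0.07 for Gabpa, with 9 negative and 1 positive and a median of -0.08, against a median of 0.00 and 49.6% negative over all genes tested. The 3 control libraries lay wholly above the 3 cKO libraries for Tfam, Mfn2 and Polrmt, and the libraries of the other 7 genes overlapped. Of all genes, 22.5% were separated in either direction and 11.4% in that one. All 10 genes passed the filter on low counts, and the smallest count of any regulator in any library was 800. With 3 libraries per genotype, changes of the size seen here may go uncalled, so the lack of calls does not show equal levels.

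**Figure D1:**
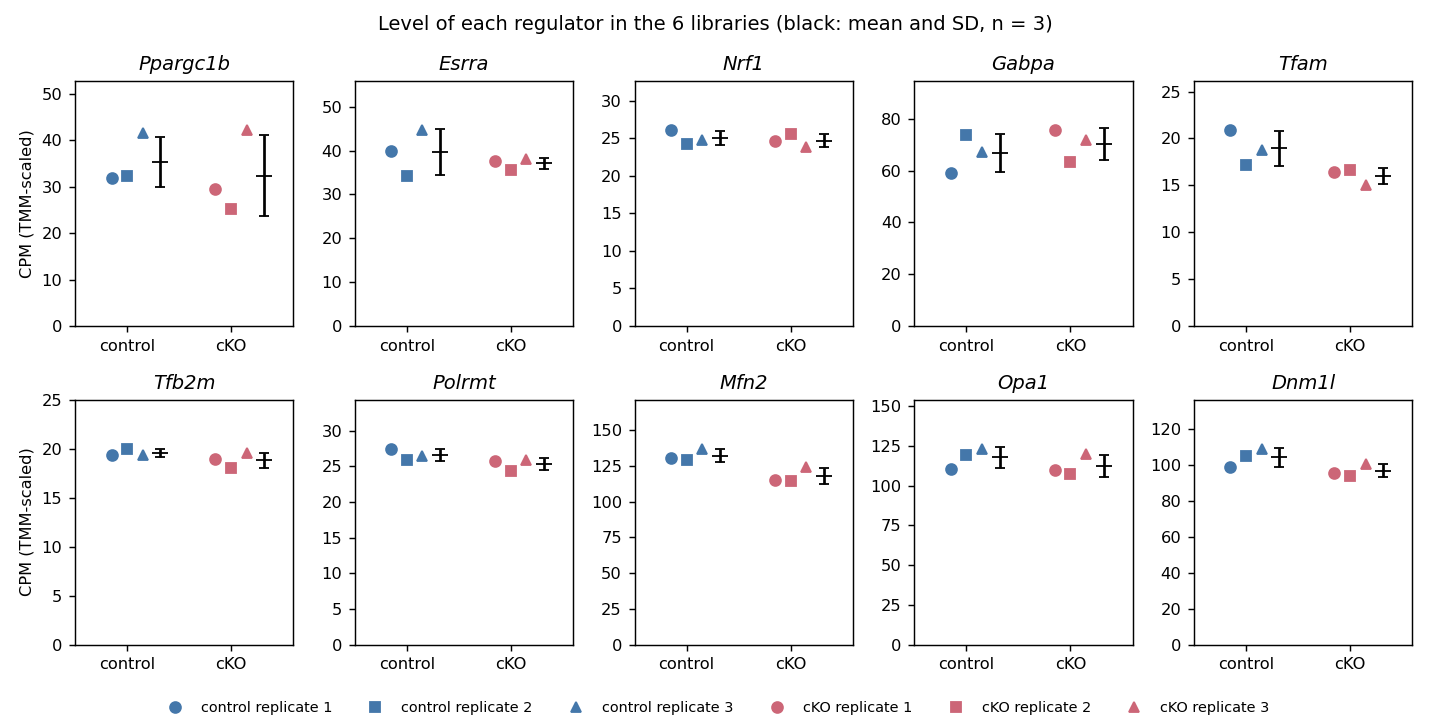
Level of each regulator in CPM after TMM scaling (vertical axis, from 0) in control and cKO libraries; each point is a library, marked by replicate number, and the black bar is the mean with its SD (n = 3). Tfam, Mfn2 and, narrowly, Polrmt are separated between genotypes, while Ppargc1b spreads from 25.3 to 42.2 CPM within the cKO libraries alone.

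Scaled by gene length, the network GTPases were the most abundant of the 10 messages and Nrf1 the least. In the deposited FPKM values (reads scaled by gene length and library size), control cells had 22.0 ± 0.82 for Mfn2, 17.3 ± 0.949 for Dnm1l and 12.9 ± 0.754 for Opa1 (mean ± SD, n = 3). Gabpa followed at 10.1 ± 1.12 FPKM, Esrra at 7.75 ± 1.04 and Ppargc1b at 7.64 ± 1.22. The genes for mitochondrial transcription were lower, with Tfb2m at 6.02 ± 0.129, Polrmt at 4.89 ± 0.146 and Tfam at 3.69 ± 0.355 FPKM. Nrf1 came last at 2.10 ± 0.0755 FPKM, with the longest length of the 10 as implied by counts and FPKM, 11840 bases. In CPM, which is not scaled by length, control cells averaged 25.1 for Nrf1, above Tfb2m at 19.6 and Tfam at 19.0. Neighbours in this order did not overlap over the 3 control libraries, with the exception of Esrra and Ppargc1b. In cKO cells the order was the same, and Ppargc1b there overlapped both Esrra and Tfb2m. The levels in cKO cells were 19.8 ± 0.915 FPKM for Mfn2, 7.06 ± 1.9 for Ppargc1b and 3.13 ± 0.178 for Tfam.

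**Figure D2:**
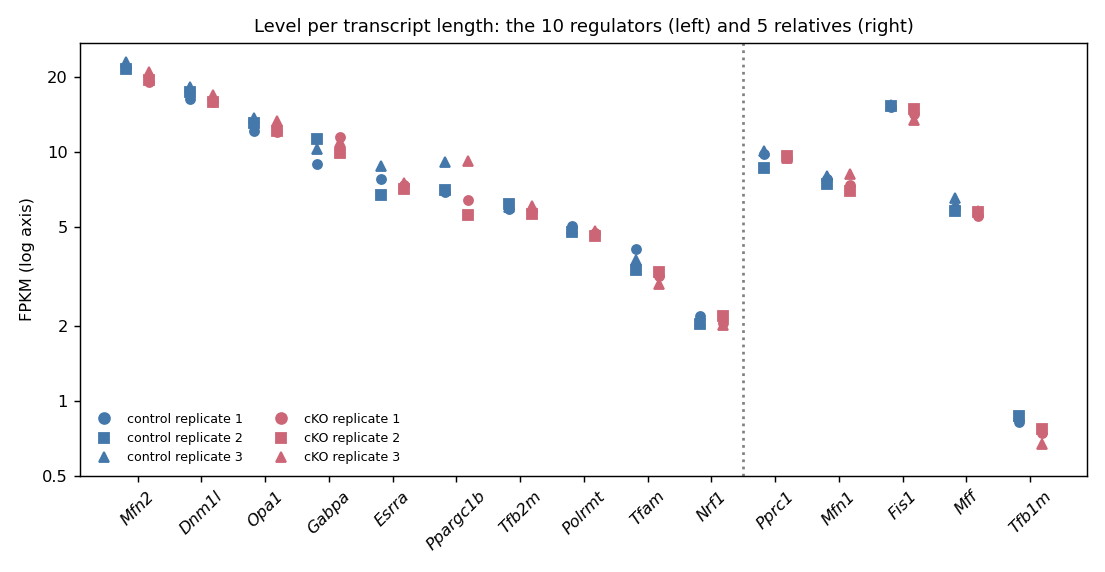
Deposited FPKM of the 10 regulators, in order of their control mean, and of 5 relatives (right of the dotted line), on a log axis; points are libraries, blue for control and red for cKO, with the replicate number as the marker shape. Levels span from about 2 FPKM for Nrf1 to above 20 FPKM for Mfn2, and the genotypes lie close together at each gene.

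Ppargc1b had the widest spread of the group and no detectable difference between genotypes. The gene (ENSMUSG00000033871, chromosome 18, 61298136 to 61400431, minus strand) measured 31.9, 32.4 and 41.6 CPM across the control libraries. The cKO libraries measured 29.6, 25.3 and 42.2 CPM. Replicate 3 was the highest library of each genotype, and the cKO range enclosed the control range. On the log2 scale the difference was -0.13 ± 0.21 (SE, edgeR adjusted p = 0.819), and its 95% interval reached from -0.64 to 0.39, that is from 0.644 to 1.31 times the control level. Its coefficient of variation was 15.4% among controls and 27.1% among cKO libraries. Without cKO replicate 3 the log2 fold change was -0.363 (adjusted p = 0.146). Without control replicate 3 it was 0.012 and without cKO replicate 2 it was 0.024, so its sign rested on single libraries.

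The osteoclast markers had their highest level in the same libraries. Their summed CPM was 11684, 10632 and 13947 across the control libraries, and 8024, 7480 and 10918 across the cKO libraries. Within each genotype, replicate 3 was thus highest for both Ppargc1b and the markers, and cKO replicate 2 was the lowest of all 6 for both. Between genotypes the match was looser: cKO replicate 3 had about as many marker counts as control replicate 2 but more Ppargc1b than any control. Whether the share of osteoclasts sets the Ppargc1b level was not tested.

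**Figure D3:**
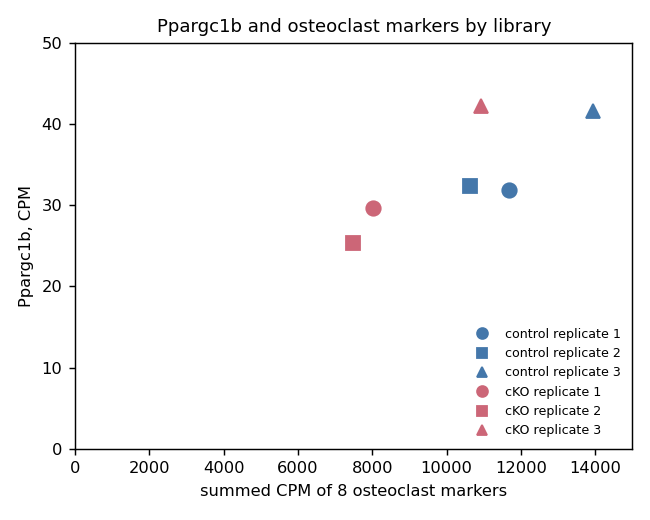
Ppargc1b in CPM (vertical axis) against the summed CPM of 8 osteoclast markers (horizontal axis), both from 0; each point is a library, coloured by genotype and shaped by replicate number. Replicate 3 of each genotype lies above 40 CPM, and the other 4 libraries lie between 25.3 and 32.4 CPM.

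Of the other PGC-1 coactivators, Pprc1 was expressed and Ppargc1a was close to absent from the reads. Ppargc1a, the gene of PGC-1α, had 0, 2 and 4 reads in the control libraries, and 14, 4 and 0 in the cKO libraries, and was removed by the filter on low counts. Pprc1, the gene of the PGC-1-related coactivator, averaged 68.9 ± 5.42 CPM (SD, n = 3) among controls against 68.5 ± 0.589 CPM among cKO libraries. Its log2 fold change was -0.01 ± 0.07 (SE, edgeR adjusted p = 0.959). In deposited FPKM, control cells held 9.47 ± 0.767 for Pprc1 and 7.64 ± 1.22 for Ppargc1b, while Ppargc1a was at 0.00333 ± 0.00577; the control libraries of Pprc1 and Ppargc1b overlapped.

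Neither of the next DNA-binding partners of PGC-1β showed a difference beyond the spread of the libraries. Esrra, the orphan nuclear receptor ERRα (ENSMUSG00000024955, chromosome 19, 6910977 to 6921840, minus strand), measured 39.9, 34.3 and 44.7 CPM across the control libraries, and 37.6, 35.6 and 38.0 CPM across the cKO libraries. The cKO values all fell inside the control range. Its log2 fold change was -0.10 ± 0.09 (SE, edgeR adjusted p = 0.645; 95% interval -0.30 to 0.10). Nrf1, nuclear respiratory factor 1 (ENSMUSG00000058440, chromosome 6, 30047988 to 30153458, plus strand), had the smallest spread of these factors, at 26.1, 24.3 and 24.8 CPM across the control libraries, and 24.7, 25.6 and 23.8 CPM across the cKO libraries. Its difference was -0.02 ± 0.08 on the log2 scale (adjusted p = 0.919), and the 95% interval of -0.19 to 0.15 corresponds to 0.875 to 1.11 times the control level. It is a different gene from Nfe2l1, whose protein is also abbreviated NRF1.

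Gabpa, the DNA-binding subunit of the ETS factor GABP, was the one regulator with a positive value. The gene (ENSMUSG00000008976, chromosome 16, 84834925 to 84863779, plus strand) measured 59.2, 73.9 and 67.4 CPM across the control libraries, and 75.7, 63.5 and 71.8 CPM across the cKO libraries, and the groups overlapped widely. The log2 fold change was 0.07 ± 0.09 (SE, edgeR adjusted p = 0.725; 95% interval -0.12 to 0.27). Over 701 bases the gene overlaps Atp5j, a subunit gene of ATP synthase on the opposite strand, which had mean levels of 37.5 CPM among controls and 34.2 CPM among cKO libraries. The sources used here do not say whether counting used the strand, so reads in the overlap may have been counted for either gene. Esrra likewise overlaps Trmt112 on the opposite strand, over 73 bases. Each of the other overlaps of a regulator was with a row whose mean was at most 0.102 CPM in either genotype, and Tfam, Polrmt and Opa1 overlapped no listed gene.

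Of Tfam, Tfb2m and Polrmt, Tfam had the most negative value, and it did not pass the test. Tfam, which packages mitochondrial DNA and bends its promoters (ENSMUSG00000003923, chromosome 10, 71225464 to 71238280, minus strand), measured 20.9, 17.2 and 18.8 CPM across the control libraries. The cKO libraries measured 16.4, 16.6 and 15.0 CPM. Every cKO library was below every control library, by a margin of less than 1 CPM between the closest pair. The log2 fold change was -0.25 ± 0.10 (SE), which is a value 15.7% below control, with an unadjusted p of 0.0326 and an adjusted p of 0.244 by edgeR. The 95% interval ran from -0.47 to -0.02. Over all 12 alternatives the value stayed negative, from -0.317 to -0.170, and its adjusted p ranged from 0.209 to 0.51.

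Tfb2m and Polrmt lay closer to their control levels. Tfb2m, which melts mitochondrial promoters together with the polymerase (ENSMUSG00000026492, chromosome 1, 179528055 to 179546267, minus strand), measured 19.3, 20 and 19.3 CPM across the control libraries, and 18.9, 18.0 and 19.5 CPM across the cKO libraries. Its log2 fold change was -0.06 ± 0.09 (SE, edgeR adjusted p = 0.783; 95% interval -0.25 to 0.13). Polrmt, the mitochondrial RNA polymerase (ENSMUSG00000020329, chromosome 10, 79736123 to 79746581, minus strand), measured 27.5, 25.9 and 26.4 CPM across the control libraries, and 25.7, 24.3 and 25.9 CPM across the cKO libraries. The genotypes did not overlap, although the closest libraries both round to 25.9 CPM. The log2 fold change of Polrmt was -0.07 ± 0.08 (adjusted p = 0.692; 95% interval -0.24 to 0.10). Tfb1m, a paralog of Tfb2m that methylates mitochondrial ribosomal RNA, was chosen after its values were seen. It held 0.853 ± 0.0289 FPKM in control and 0.727 ± 0.0513 FPKM in cKO cells. Its libraries were separated in CPM, with a log2 fold change of -0.24 ± 0.18 (SE) and an edgeR adjusted p of 0.53.

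The messages that this machinery makes took a similar share of the reads in both genotypes. The 13 mRNAs encoded in mitochondrial DNA held 3.61%, 3.63% and 4.04% of all counts across the control libraries, and 3.84%, 3.40% and 3.62% across the cKO libraries. The groups overlapped, with a difference of -0.139 percentage points (exact permutation test, two-sided, p = 0.6; the smallest p that 3 against 3 allows is 0.1). Without control replicate 3 the difference was 0.00124 percentage points. Of the 13 genes, 1 was called lower, mt-Co3 (-0.30 ± 0.06 SE, edgeR adjusted p = 0.0307), and the median was -0.03 on the log2 scale. The call of mt-Co3 was lost with the trend over gene length removed (-0.199, adjusted p = 0.13). In that fit the median of the 13 was 0.07, against 0.02 over all genes tested. The call was also lost in 5 of the 6 fits with 1 library left out and held without cKO replicate 3 (0.0483). The log2 fold change of mt-Co3 ranged from -0.336 to -0.247 over these 6 fits.

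**Figure D4:**
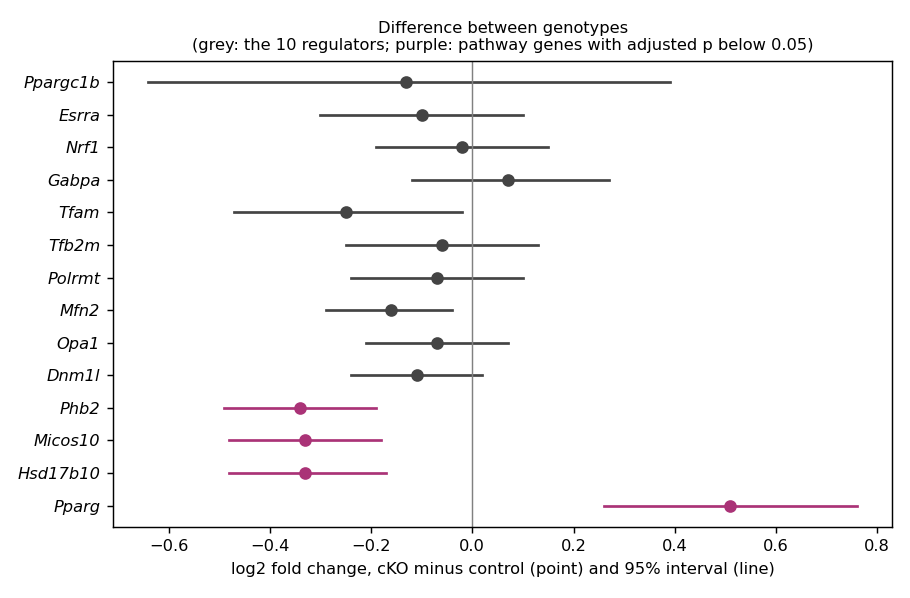
Log2 fold change of cKO minus control (points) with its 95% interval (lines) for the 10 regulators in grey and for the 4 called genes of the wider pathway in purple. The intervals of Tfam and Mfn2 lie just below 0 before adjustment for the number of genes tested, and those of the other 8 regulators include 0.

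Of the 3 genes for membrane fusion and fission, Mfn2 was the one with separated genotypes. Mfn2, the outer membrane fusion GTPase (ENSMUSG00000029020, chromosome 4, 147873599 to 147904704, minus strand), measured 130.3, 129.1 and 137.1 CPM across the control libraries. The cKO libraries measured 115.3, 114.5 and 124.4 CPM, each below the lowest control. The log2 fold change was -0.16 ± 0.06 (SE), a value 10.7% below control, with an unadjusted p of 0.0158 and an adjusted p of 0.175 by edgeR. Its 95% interval was -0.29 to -0.04, and the adjusted p was 0.101 to 0.476 over the 12 alternatives. Mfn1, the second outer membrane mitofusin, averaged 54.8 ± 1.95 CPM (SD, n = 3) among controls against 52.6 ± 4.52 CPM among cKO libraries (-0.06 ± 0.07, adjusted p = 0.736).

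Opa1 and Dnm1l, which have opposite roles in the network, varied alike from library to library and did not pass the test. Opa1 (ENSMUSG00000038084, chromosome 16, 29579334 to 29654884, plus strand) measured 110.8, 119.4 and 123.5 CPM across the control libraries, and 109.7, 107.6 and 120.2 CPM across the cKO libraries. Its log2 fold change was -0.07 ± 0.06 (SE, edgeR adjusted p = 0.648; 95% interval -0.21 to 0.07). Dnm1l (ENSMUSG00000022789, chromosome 16, 16312230 to 16358959, minus strand) measured 98.5, 105.0 and 109.0 CPM across the control libraries, and 95.6, 93.7 and 100.6 CPM across the cKO libraries. The groups overlapped for both genes, since cKO replicate 3 exceeded control replicate 1. For Dnm1l the log2 difference was -0.11 ± 0.06 (SE, edgeR adjusted p = 0.383; 95% interval -0.24 to 0.02). The log2 CPM of Opa1 minus that of Dnm1l was 0.17, 0.19 and 0.18 across the control libraries, and 0.20, 0.20 and 0.26 across the cKO libraries. Across the 6 libraries Pearson's r of log2 CPM was 0.93 between Opa1 and Dnm1l and 0.90 between Mfn2 and Dnm1l, a description over libraries that share a scaling and in part a genotype.

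Neither Fis1 nor Mff, partners of DRP1 in fission, passed the test. Fis1, an outer membrane protein of the fission machinery, averaged 30.3 ± 0.284 CPM (SD, n = 3) among controls against 27.9 ± 1.29 CPM among cKO libraries, with the libraries separated, a log2 fold change of -0.12 ± 0.07 (SE) and an edgeR adjusted p of 0.443. Mff, a receptor that recruits DRP1 to mitochondria, stood at 68.9 ± 4.11 and 63.7 ± 1.03 CPM, also separated (-0.11 ± 0.06, adjusted p = 0.381).

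The wider pathway was described with 6 lists that hold 99 genes outside the 10 regulators, of which 95 were tested. Of these, 1 was higher and 3 were lower in cKO cells by edgeR, which is 4 of 95 against 2.42% of all genes. The log2 fold changes were negative for 65 and positive for 30, with a median of -0.08. All 4 calls depended on the libraries: without control replicate 1, control replicate 3, cKO replicate 1 or cKO replicate 2 none of the 95 was called, without control replicate 2 there was 1 call, and without cKO replicate 3 there were 5.

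The list of fusion and inner membrane shape genes held 2 of the calls. Of its 19 tested genes 0 rose and 2 fell, 18 were negative, and the median was -0.19. Phb2, a prohibitin whose ring complex scaffolds the inner membrane and guards the processing of OPA1, measured 102.3, 94.8 and 111.0 CPM across the control libraries, and 76.6, 82.1 and 84.5 CPM across the cKO libraries. All cKO libraries were below all controls, and the log2 fold change was -0.34 ± 0.07 (SE, edgeR adjusted p = 0.0276; 95% interval -0.49 to -0.19). Micos10, a core subunit of the MICOS complex at crista junctions, measured 35.8, 35.7 and 36.7 CPM across the control libraries, and 28.2, 29.9 and 28.2 CPM across the cKO libraries. It fell by 0.33 on the log2 scale (SE 0.07, adjusted p = 0.0329). The call of Micos10 was lost in each of the 6 fits with 1 library left out, with adjusted p of 0.0528 to 0.181 and log2 fold changes of -0.356 to -0.311, and with the trend over gene length removed (-0.269, adjusted p = 0.0651). That of Phb2 was lost without control replicate 1 (0.109), control replicate 3 (0.12), cKO replicate 1 (0.191) or cKO replicate 2 (0.0533), and its log2 fold change ranged from -0.400 to -0.278 over the 6 fits.

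Both of these called genes carry the GABP letters near their start. Sites of the called genes Hsd17b10 and Pparg are not given here, and a link between the letters and the calls was not tested. For Phb2 and Micos10, 1 site each is shown beside the lines of the regulators, with the motif again in capitals.
Phb2, chr6:124712204-124712233, plus strand, GABP: caagaggcgggaCTTCCGGatgcgccattc
Micos10, chr4:139131120-139131149, minus strand, GABP: agcgaagaaaagCCGGAAGccagggacgac
These letters begin 73 bases before the RefSeq start of Phb2. Micos10 has 2 RefSeq starts, and its letters begin 100 bases before one and 24 bases before the other. Neither line overlaps an exon in GENCODE release M21. Among 11332 tested genes with a promoter window, 2137 held the GABP letters, of which 1.36% were called lower and 1.03% higher by edgeR. Over all 11332 the shares were 1.13% lower and 1.46% higher. The median log2 fold change was -0.035 with the GABP letters, and -0.005 over all. For the NRF1 letters, held by 1218 tested genes, the shares were 0.985% lower and 1.23% higher with a median of -0.027. With the trend over gene length removed, these 2 medians were -0.015 and -0.006. In that fit the median over all 16843 genes tested, a wider set than the 11332, was 0.02. The ERR letters were held by 37 tested genes, too few for their 2 calls, both lower, to be read against the whole. For the YY1 letters, held by 620 tested genes, 1.29% were called lower and 0.323% higher. For the CREB letters, held by 382, these shares were 1.31% and 0.0%.

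In the list of mitochondrial RNA processing genes, 0 of 17 tested rose and 1 fell, 14 were negative and the median was -0.16. The gene that fell was Hsd17b10, a subunit of mitochondrial RNase P and an enzyme of isoleucine breakdown, from 42.3, 42.3 and 44.0 CPM across the control libraries to 31.8, 34.5 and 36.4 CPM across the cKO libraries. Its log2 fold change was -0.33 ± 0.07 (SE, edgeR adjusted p = 0.0385). The call was lost with the trend over gene length removed (-0.22, adjusted p = 0.164) and in 5 of the 6 fits with 1 library left out, up to an adjusted p of 0.213 without cKO replicate 1, with log2 fold changes of -0.372 to -0.273 over the 6. At an unadjusted p under 0.05, 6 of these 17 genes and 9 of the 19 genes of fusion and inner membrane shape were lower, where 8.79% of all genes were.

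The list of coactivators and upstream regulators had the one rise. Of its 21 tested genes 1 rose and 0 fell, 8 were negative and the median was 0.04. Pparg, a nuclear receptor that binds PGC-1 coactivators and controls lipid handling in macrophages, measured 16.0, 17.0 and 12.8 CPM across the control libraries. The cKO libraries measured 22.4, 22.6 and 19.9 CPM, all above the highest control. The log2 fold change was 0.51 ± 0.12 (SE, edgeR adjusted p = 0.0415; 95% interval 0.26 to 0.76). The call held without cKO replicate 3 (adjusted p = 0.0317) and was lost without any other library, up to 0.215 without cKO replicate 1, with log2 fold changes of 0.397 to 0.588 over the 6 fits.

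The remaining 3 lists held no call by edgeR, no gene at an unadjusted p under 0.05 and no call by DESeq2. For mitochondrial DNA maintenance and transcription, 0 of 20 rose or fell, 15 were negative and the median was -0.10; the smallest p-values were those of Mgme1, a mitochondrial exonuclease (-0.22 ± 0.11 SE, edgeR adjusted p = 0.323), and Exog, a mitochondrial endonuclease (-0.30 ± 0.15, adjusted p = 0.333). For fission, 0 of 12 rose or fell, 6 were negative and the median was -0.02. The smallest p-value beside that of Mff was that of Gdap1 (1.37 ± 0.83, adjusted p = 0.43), which rested on 3 to 31 reads per library. For mitochondrial transport, 0 of 6 rose or fell and the median was -0.02, with Rhot1, a Miro GTPase that ties mitochondria to motors (-0.12 ± 0.06, adjusted p = 0.315), and the motor adaptor Trak1 (0.07 ± 0.07, adjusted p = 0.628) at the smallest p-values.

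**Figure D5:**
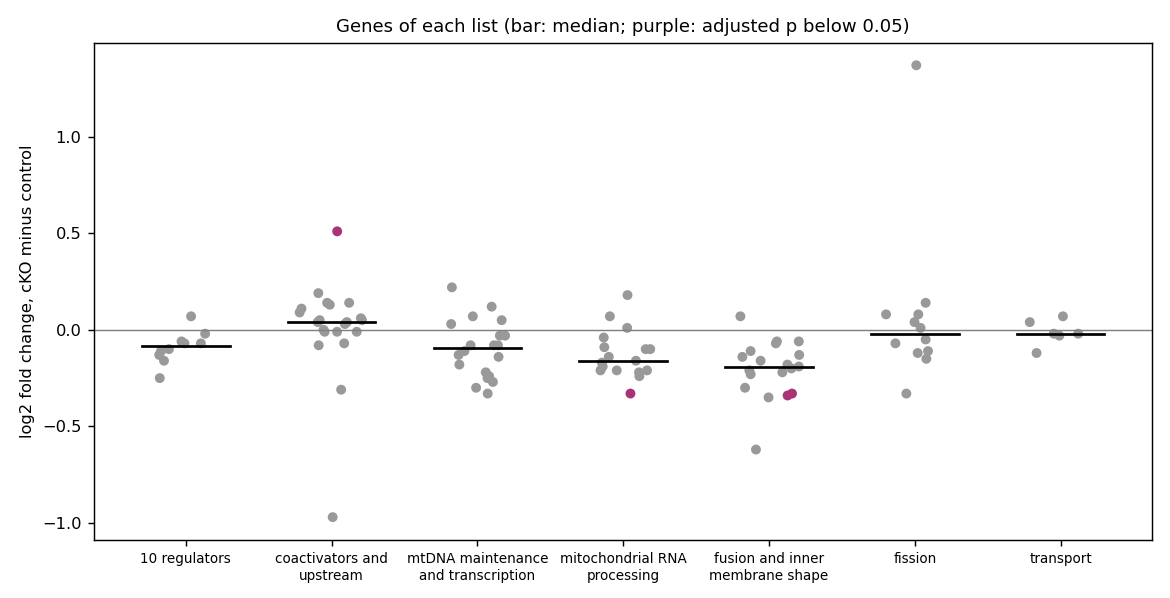
Log2 fold change of cKO minus control for every tested gene (points) of the 10 regulators and of the 6 pathway lists, with the median as a bar and genes with an adjusted p below 0.05 in purple. The fusion and inner membrane list sits lowest, with a median of -0.19, and the regulators have a median of -0.08 and no purple point.

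The regulators were set beside the respiratory chain genes that they are known to serve. By symbol, 76 nuclear subunit genes of complexes I to V were tested, in a list put together with earlier results of these data known. All 76 were negative, with a median of -0.25, and 11 were called lower by edgeR, against 1.06% of all genes. DESeq2 called 31 of them lower. Relative to the control mean, the average log2 level of these 76 genes was -0.32, -0.27 and -0.20 in cKO replicates 1 to 3. That of the 10 regulators was -0.09, -0.16 and -0.02, against -0.02, -0.03 and 0.06 for the same genes in the controls. The regulators were therefore below their control range in cKO replicates 1 and 2, and within it in cKO replicate 3. The subunit genes in all 3 cKO libraries were below their control range of -0.08 to 0.05. The difference between these lists was not tested. With the trend over gene length removed, 3 of the 76 subunit genes were called. The median of the 76 was then -0.18, against -0.08 for the regulators and 0.02 over all genes tested.

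Genes with the pattern most like that of a regulator were found by Pearson's r of log2 CPM over the 6 libraries, among 9954 tested genes with an official symbol and a mean of at least 5 CPM. For Ppargc1b they were Fam102a (r = 0.993), Kidins220 (0.992) and Tbc1d2b (0.992). Kidins220 measured 400.4, 407.7 and 456.6 CPM across the control libraries, and 376.9, 346.6 and 453.7 CPM across the cKO libraries, with replicate 3 highest in each genotype, as for Ppargc1b. For Tfam they were Map3k11 (0.993), Clta (0.989) and Kat7 (0.988). All of these libraries share a scaling, and 87 genes (0.874%) had an r above 0.95 with Ppargc1b and 48 (0.482%) with Tfam.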

How the data were processed

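Polyadenylated RNA of 6 libraries (3 per genotype) was measured by RNA-seq. Per the submitters' processing notes, cutadapt 1.9 and the build mm10 were used; the sources used here do not say which aligner, counter and annotation were used, or whether strand was. Per the file headers, the values tested are raw counts, which are whole numbers as deposited. FPKM, the unit of the second column per the file headers, was made by the authors. It served to compare levels per length and, with the counts, to infer the gene lengths used below. Genes were kept by filterByExpr (minimum count 10, minimum total 15), scaled by TMM and tested with edgeR 4.0.16 (quasi-likelihood, robust) in R 4.3.3, with Benjamini-Hochberg adjustment over 16843 genes and a threshold of 0.05. A standard error is the log2 fold change divided by the square root of F, and intervals use the test's degrees of freedom. They are 95% intervals for 1 gene, not adjusted for the number of genes. Alternatives were RLE size factors, no filter, DESeq2 1.42.0, limma-voom (3.58.1) with a quality weight for each library, and a replicate block. Further alternatives were removal of the trend over gene length (length implied by counts and FPKM, lowess span 0.3) and leaving out each library.

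The 10 regulators and all lists were chosen with earlier results of these data known. Named genes are the regulators, Slc11a2, fixed partners (Ppargc1a, Pprc1, Mfn1, Fis1, Mff), called genes of each list or else the 2 of smallest p, and the 3 genes most like Ppargc1b and Tfam. A single read was worth 0.0173 to 0.0201 CPM, and the 10 regulators had 800 to 7869 counts per library.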

Additional observations from a re-analysis of the deposited data

How the results depend on the processing

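The count of 0 called regulators was the same under all 12 alternatives. That says little about small changes: the largest of the 10 was -0.25 for Tfam, and the smallest change called among the other named genes was -0.30, for mt-Co3. Of the 120 values of regulators, 113 kept their sign. The 7 that changed sign lay near 0. With the trend over length removed, Tfb2m was at 0.00041. Leaving out a library, log2 fold changes ranged from -0.363 to 0.024 for Ppargc1b, -0.195 to 0.002 for Esrra, -0.051 to 0.010 for Nrf1 and -0.004 to 0.148 for Gabpa, and, among partners, from -0.078 to 0.033 for Pprc1 and -0.123 to 0.001 for Mfn1. Pprc1 was at 0.007 with limma-voom. The difference in the mitochondrial share ranged from -0.249 to 0.00124 percentage points. The cause of these changes was not tested. Of 180 values of other named genes, 28 lost a call, but most of the 180 belong to genes that had no call to lose. The 28 losses were in Pparg, Hsd17b10, Phb2, Micos10 and mt-Co3. Slc11a2, also called, kept its call under every alternative.

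The number of pathway genes called was 4, 3 to 5 with other tools and settings, and 0 to 5 without 1 library. The 407 calls over all genes became 874 with DESeq2, 673 with the replicate block and 59 to 624 without 1 library, 59 without cKO replicate 1. Same-numbered libraries correlated at -0.0765, 0.0496 and 0.262 in their deviations from the genotype mean, so the numbers were not taken as pairs; of the 3 numbers, only for number 3 did each library correlate best with the one of the same number. The block kept 0 called regulators and 4 called pathway genes. It called 7 of the 8 osteoclast markers lower, where the fit without it called 0, 2 of the 6 stromal markers higher against 0, and 23 of the 76 respiratory chain genes lower against 11.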
